A study of Pinus pinaster with 24 samples.

Results

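The 100 transcripts described here had higher levels in the root cap and in the root meristem of maritime pine (Pinus pinaster) than in the 2 tissues behind them, cortex and vascular tissue under development. They were chosen from 51211 transcripts by their mean level in each of the 4 areas, over 6 libraries an area. For each transcript, the lower of the cap and meristem means was set over the higher of the cortex and vascular means, with 0.5 added to both, and the 100 highest log2 ratios were taken. The ratio alone therefore makes all of them apical, and their level by area is given as a description, with no test.

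The study asked how 4 parts of a pine root tip respond to a short nitrate supply. Seedlings of 1 month, of the Segura-Alcaraz provenance, spent 3 days of acclimation with no nitrogen source. They were then watered with 80 mL of 3 mM potassium nitrate (NO3K in the labels, called nitrate here) or of 3 mM potassium chloride (KCl, the control), and root tips of 5 to 6 mm were cut 2 h later. Sections of 30 µm were microdissected with a laser into the cap, the meristem and, behind them, the forming cortex and the forming vascular tissue. RNA with an integrity number above 7 was amplified with a kit for low RNA input. Each area has 3 nitrate and 3 KCl libraries, numbered 1 to 3 by experiment, which makes 24 libraries in 8 groups. All groups share the nitrogen-free acclimation. Neither the number of seedlings behind a library nor the independence of the 3 experiments is given in the labels, so a p-value here covers the spread among these libraries alone, which may be technical.

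The root cap covers the growing tip, is renewed from stem cells below it, sheds its outer cells and senses gravity. The meristem behind it holds the dividing cells from which the files of cortex and vascular tissue are formed. In conifers such as pine the boundary between cap and meristem is less sharply layered than in many flowering plants, since they share initial cells. None of the 51211 transcript identifiers is paired with a gene name in the sources used here, so no function is given to any member, and the area labels could not be checked against known marker genes. An identifier is a transcript of the authors' reference, and several may stand for copies or parts of 1 gene.

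Levels are in CPM, the authors' name for read counts scaled by library. They are not divided by transcript length, so levels are compared between libraries and areas within a transcript. Reads recovered from these values came to 45262154 to 51517525 per library, and 1 read was worth 0.0171 to 0.0247 CPM. Libraries of the same solution and experiment number deviated together in all 4 areas, with correlations across transcripts of 0.279 to 0.694 in all 36 pairs of libraries. Such libraries are called a set below, which makes 6 sets, and those of 1 set are not independent. The labels do not say whether a set shares root tips, and shared root tips and a shared batch cannot be told apart here.

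Over their area means, the members ran from 2.1 to 375 CPM in cap, with a median of 21.3, and from 1.99 to 173 CPM in meristem, with a median of 11.9. They ran from 0 to 34.3 CPM in cortex, with a median of 0.387, and from 0 to 21.1 CPM in vascular tissue, with a median of 0.163. The medians over all 51211 transcripts were 4.15, 3.79, 3.88 and 3.73 CPM in cap, meristem, cortex and vascular tissue. The median CPM of the members, with no correction for length, was thus above that of all transcripts in the 2 apical areas and below it in the 2 others. Fewer cells of a type and less RNA per cell cannot be told apart in such bulk samples.

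Summed, the members made up 0.586% ± 0.090 of the total CPM of a cap library and 0.338% ± 0.102 of that of a meristem library (SD, n = 6 each). They made up 0.0273% ± 0.0172 of a cortex library and 0.0155% ± 0.0056 of a vascular library (SD, n = 6 each). The summed share did not overlap between apical and other libraries: the lowest apical library, in meristem, held 0.172%, and the highest of the others, in cortex, held 0.0615%.

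A mean higher in both apical areas than in both others was found for 6965 transcripts, or 13.6% of the table. The log2 ratio of the rule reached 1 in 538 transcripts and 2 in 119, so the chosen 100 lie at the end of a thinning tail, between 2.1 and 5.79 with a median of 2.68. For 69 members the lowest of the 12 cap and meristem libraries was above the highest of the 12 cortex and vascular libraries, a pattern held by 0.678% of all transcripts. Within sets, 90 members had both apical libraries above both others in 6 of 6 sets, 7 in 5 sets and 3 in fewer. The rule used these same values, and the matching share over all transcripts is not given, so these counts only describe the members.

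**Figure D1:**
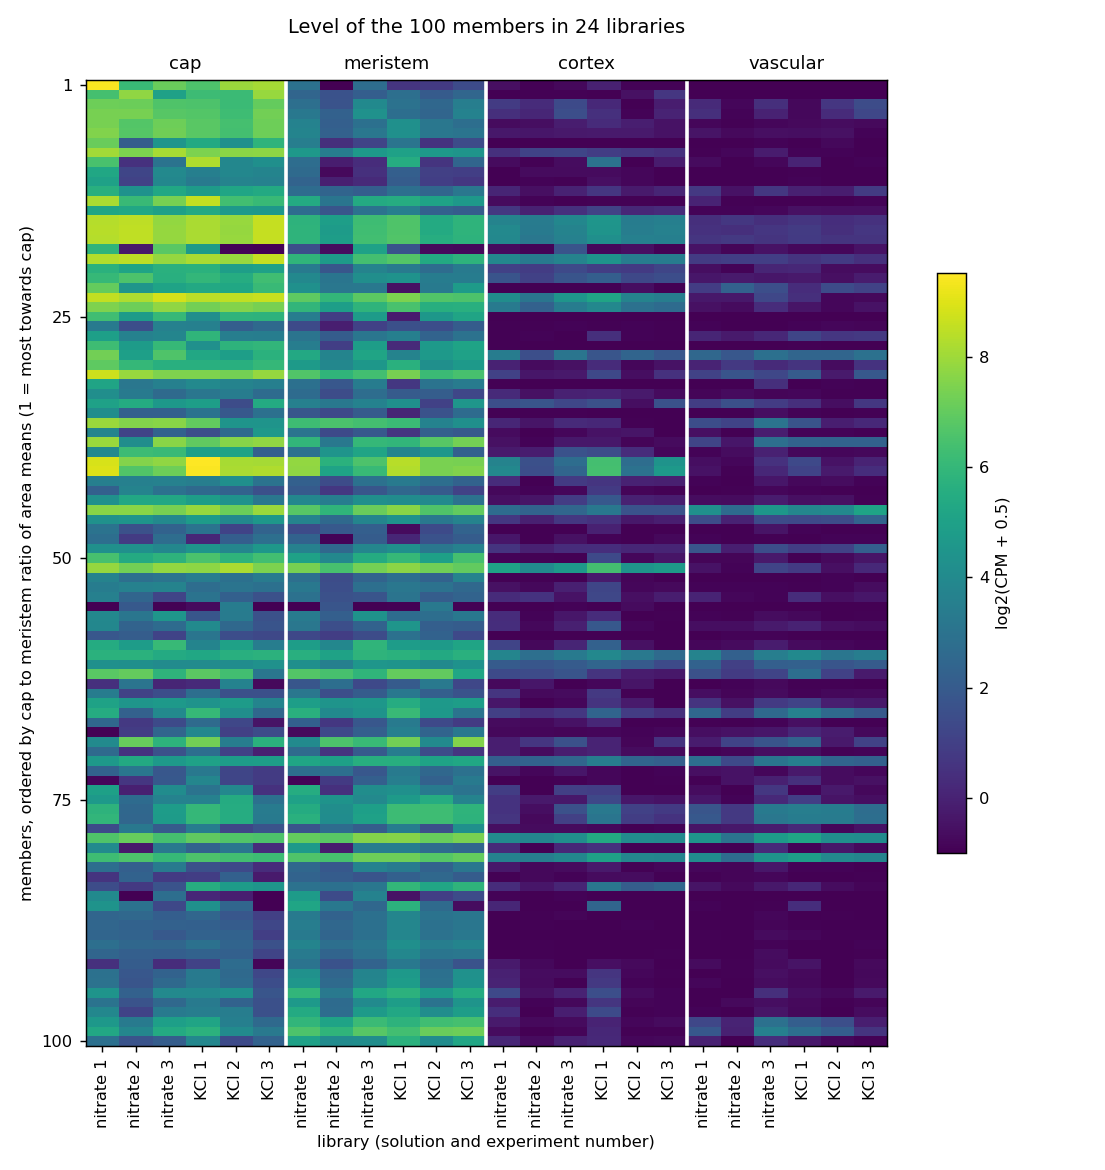
Level of each of the 100 members (rows, ordered by the ratio of cap to meristem means) in the 24 libraries (columns, by area and within an area nitrate left of KCl), as log2(CPM + 0.5) by colour. Most rows are brighter in the cap and meristem blocks than in the cortex and vascular blocks, with no overlap of single libraries in 69 rows, and 37 rows had a mean of at least 1 CPM in cortex or vascular tissue. A few rows are near 0 in several cap or meristem libraries.

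The member with the highest ratio, pp_222140, had 66.8, 124 and 372 CPM as the lowest, median and highest of the 6 cap libraries and 8.02, 37.6 and 45.6 CPM in meristem. Its highest library was 0.121 CPM in cortex and 0.538 CPM in vascular tissue. Every apical library was thus far above every other, although the cap libraries spread over more than 5-fold among themselves.

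The next, pp_150262, had 42.9, 68.4 and 91.8 CPM as the lowest, median and highest cap library and 14.7, 37.8 and 84.2 CPM in meristem. Its highest vascular library was at 0.324 CPM and its highest cortex library at 2.03 CPM. That cortex value came from KCl 1, and the other 5 cortex libraries were at or below 0.265 CPM. Cap and meristem overlapped for this transcript, unlike either with cortex or vascular tissue.

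Transcript pp_95036 had no read in any of the 12 cortex and vascular libraries. It had 18, 56.5 and 78.3 CPM as the lowest, median and highest cap library and 0.371, 16.8 and 34.6 CPM in meristem. Set against a floor of 3 reads per library, its cap mean was at least 846-fold higher than cortex and at least 860-fold higher than vascular tissue, and its meristem mean at least 271-fold and at least 275-fold higher than those. Its meristem libraries spread widely, and the lowest, KCl 1, held 20 reads. At most 3 reads in each of the 12 cortex and vascular libraries were found for 7 members. The identity of pp_95036 was singled out after its values were seen.

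At the other end of the list, rank 99 was pp_166874, with 156, 221 and 292 CPM as the lowest, median and highest cap library and 88.9, 154 and 209 CPM in meristem. It also had 15.9, 26 and 82.6 CPM in cortex, and at most 1.72 CPM in vascular tissue. Rank 100, pp_188998, averaged 41.8 ± 10.9 CPM in cap, 8.28 ± 3.28 in meristem, 1.54 ± 0.30 in cortex and 0.274 ± 0.251 in vascular tissue (SD, n = 6 each), with a log2 ratio of 2.1. Just outside, at a log2 ratio of 2.09, pp_35670 averaged 13.8 ± 4.5 CPM in cap, 1.96 ± 1.09 in meristem, 0.0753 ± 0.1073 in cortex and 0.0381 ± 0.0333 in vascular tissue, and pp_128019 averaged 46.8 ± 6.0, 45.4 ± 8.9, 9.85 ± 3.17 and 10.3 ± 3.7 CPM in the same order (SD, n = 6 each). The last members and the first transcripts left out are thus alike in ratio, and the end of the list is a rank and not a gap.

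The members differed in how they were shared between the 2 apical areas. The cap mean was higher for 60 and the meristem mean for 40, against 48.6% of all transcripts with a higher cap mean. Cap exceeded meristem by at least 2-fold in 43 members, 42 were within 2-fold, and meristem exceeded cap by at least 2-fold in 15. Cap was higher in 6 of 6 sets for 45 members and meristem in 6 of 6 sets for 16. The ratio was lopsided at its ends, with cap at least 10-fold above meristem in 7 members and meristem at least 4-fold above cap in 1. For these fold classes and set counts the share over all transcripts is not given. Whether they are unusual was therefore not tested.

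The member most shifted to the cap was pp_203615, with 69.6, 192 and 706 CPM as the lowest, median and highest cap library. It had 0, 1.68 and 7.06 CPM in meristem, at most 0.464 CPM in cortex and no read in vascular tissue. Its cap mean was 85.8-fold its meristem mean, and with a meristem library at 0 it was apical in 5 of 6 sets. The next, pp_198684, had 31.8, 79.5 and 239 CPM in cap and 2.63, 4.45 and 6.70 CPM in meristem, a 26.7-fold difference of means. Its highest cortex library was at 1.1 CPM, and it had no read in vascular tissue. For both, every meristem library was below every cap library, and the meristem mean was above the cortex and vascular means.

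The member most shifted to the meristem was pp_68330, with 2.07, 4.12 and 14.0 CPM as the lowest, median and highest cap library and 16.3, 24.6 and 51.9 CPM in meristem. Its meristem mean was 5.03-fold its cap mean, and the libraries of the 2 areas did not overlap. It had at most 0.675 CPM in cortex and 0.801 CPM in vascular tissue. The next, pp_57747, had 8.94, 27.8 and 54.2 CPM in cap and 59.5, 104 and 148 CPM in meristem, a 3.61-fold difference of means. It was also present in vascular tissue, at 0.488, 3.59 and 11.4 CPM, while the highest cortex library was at 0.633 CPM. Cap and meristem did not overlap for pp_57747 either.

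**Figure D2:**
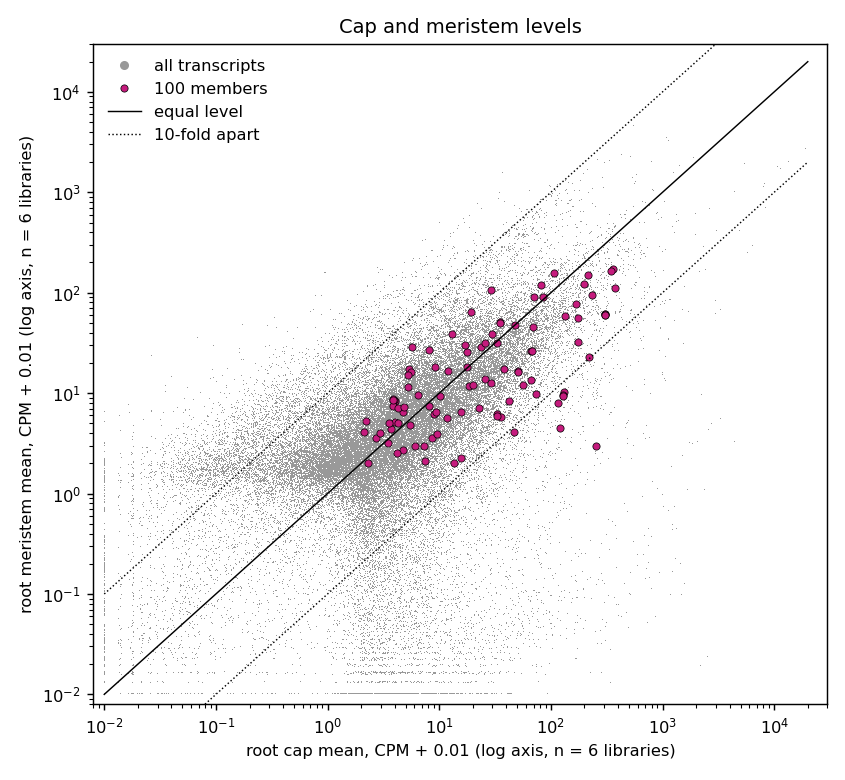
Mean root cap level against mean root meristem level (CPM + 0.01, log axes, n = 6 libraries each) for the members and for all transcripts. The members lie on both sides of the line of equal levels, and pp_203615, with a cap mean 85.8-fold above the meristem mean, is the farthest towards the cap.

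A transcript could also enter the list from 1 apical area with a little signal in the other, so lists made from each apical area alone were set beside it. Of the 100 transcripts with the highest ratio of cap to cortex and vascular tissue, with meristem ignored, 14 were members. Their meristem mean was a median 0.0493% of their cap mean, and it was under 1% in 80 of them and at least 10% in 7. Of the 100 chosen in the same way from meristem, with cap ignored, 72 were members. Their cap mean was a median 69.8% of the meristem mean, under 1% in 4 and at least 10% in 92. Transcripts ranked by cap alone were thus mostly near 0 in meristem relative to cap, while those ranked by meristem alone were mostly present in cap.

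The same asymmetry was present over all transcripts. Of 15239 with a cap mean of at least 10 CPM, 902 or 5.92% had a meristem mean under 1% of it. Of 14019 with a meristem mean of at least 10 CPM, 30 or 0.214% had a cap mean under 1% of it, and 0.0685% was the lowest share. In the members the meristem mean was 1.16% to 503% of the cap mean, with a median of 67.0%. Signal shared because cells of one area were cut with the other was not tested.

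The remaining signal outside the tip also took more than 1 form. The higher of the cortex and vascular means was under 0.1 CPM for 19 members and at least 1 CPM for 37. Among those 37, cortex was at least 4-fold above vascular tissue in 16, vascular tissue was at least 4-fold above cortex in 5, and 16 lay between. Crossing this with the apical order, 39 members were highest in cap with more remaining signal in cortex, 20 in cap with more in vascular tissue, 19 in meristem with more in cortex and 21 in meristem with more in vascular tissue, and 1 had equal cortex and vascular means of 0.

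The 2 members with the highest CPM, not corrected for length, in the lower of their apical areas had cortex as the third area. Transcript pp_88968 had 192, 280 and 737 CPM as the lowest, median and highest cap library and 51.7, 166 and 337 CPM in meristem. In cortex it had 2.46, 9.47 and 81.9 CPM, and in vascular tissue at most 2.03 CPM. Transcript pp_74860 had 102.2, 302 and 697 CPM in cap, 33.6, 177 and 319 CPM in meristem and 2.36, 10.8 and 86.0 CPM in cortex, with at most 1.67 CPM in vascular tissue. The highest cortex library overlapped the lowest meristem library for both, and CPM values of the 2 transcripts, with 0.5 added, were within 2-fold of each other in all 24 libraries.

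**Figure D3:**
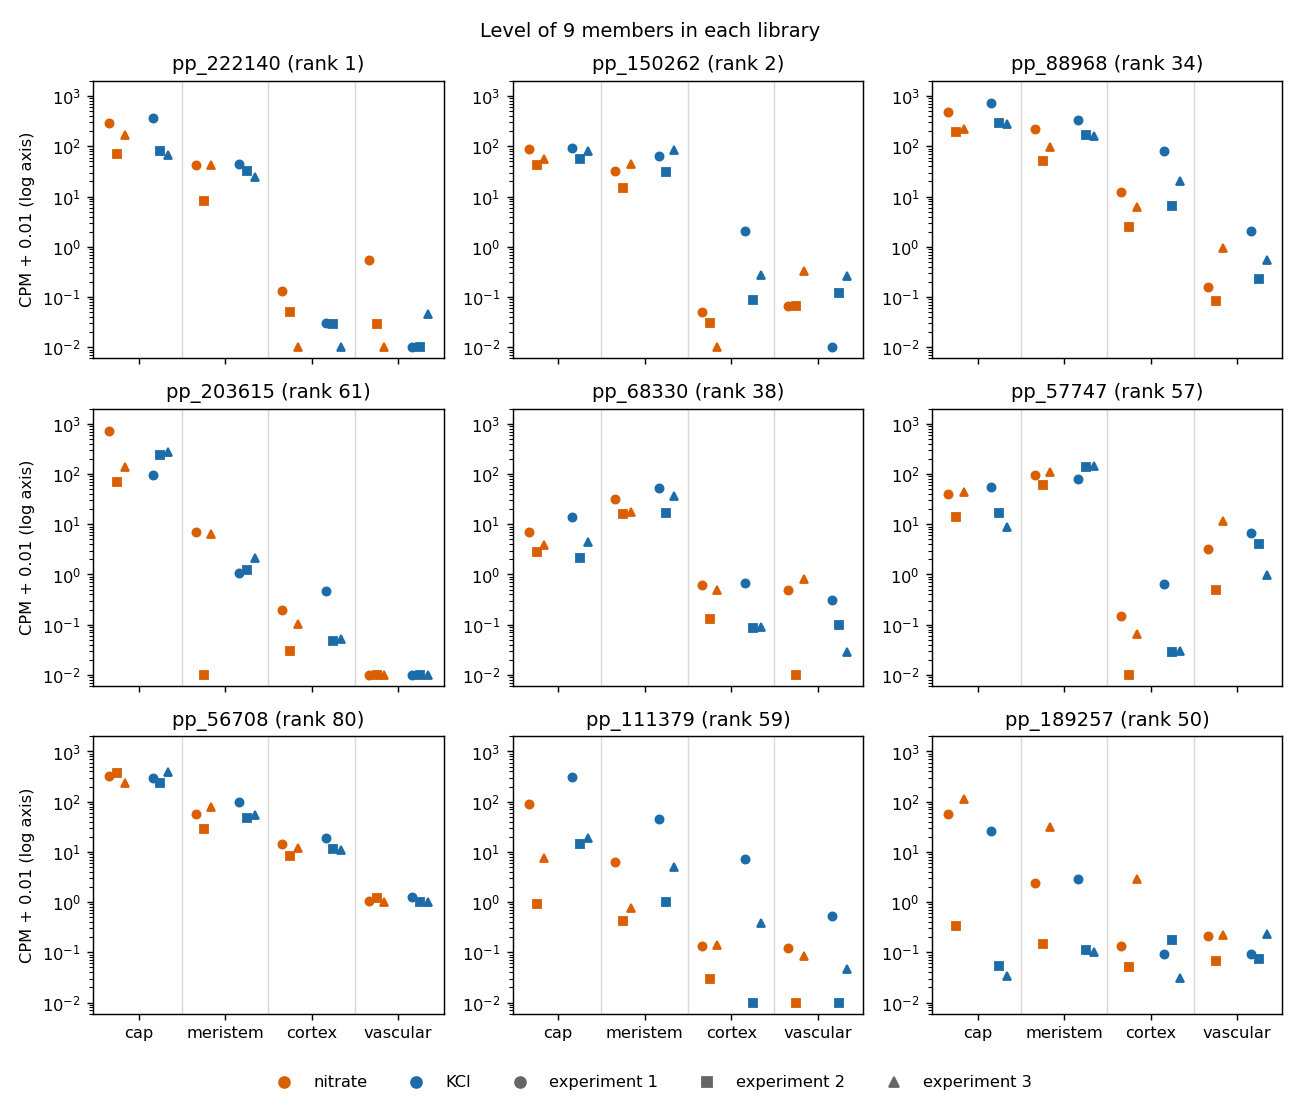
Level of 9 members in each library (points, CPM + 0.01, log axis), by area, with nitrate left of KCl in each. Every cap and meristem point lies above every cortex and vascular point for pp_222140, pp_150262, pp_68330 and pp_56708, while single libraries overlap for pp_88968, pp_203615, pp_57747, pp_111379 and pp_189257.

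Many members came in groups with consecutive identifiers. By identifier number, 62 of the 100 stood in 21 runs of consecutive members, made up of 12 runs of 2, 3 of 3, 2 of 4, 3 of 5 and 1 of 6, and 38 stood alone, which gives 59 separate runs and single transcripts. Of all identifiers, 85.7% have a consecutive one, as do 89 members, so neighbouring numbers are common. The 41 pairs of consecutive members differed in their log2 ratio of cap to meristem by a median of 0.10, against 1.49 over all 4950 pairs of members. Levels, with 0.5 CPM added, were within 2-fold of each other in all 24 libraries for 32 pairs of members, 16 of them consecutive, and 38 members had such a partner. The matching share of such pairs over all transcripts is not given. Transcripts of 1 run may share reads, which was not tested, so the 100 members may not be 100 independent genes.

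The longest run, pp_56707 to pp_56712, holds 6 members. Its middle transcripts pp_56708, pp_56709, pp_56710 and pp_56711 averaged 303 to 307 CPM in cap, 59.9 to 61.3 in meristem, 12.7 to 13.4 in cortex and 0.930 to 1.21 in vascular tissue. At its ends, pp_56707 averaged 65.9 ± 18.6 CPM in cap and 13.6 ± 4.8 in meristem, and pp_56712 averaged 33.0 ± 7.2 CPM in cap and 5.85 ± 2.89 in meristem (SD, n = 6 each). All 6 had cap at 4.86-fold to 5.64-fold the meristem mean, and cortex above vascular tissue, so the areas stood in the same order along the run.

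Another run of 5, pp_235112 to pp_235116, did not behave as a block. Cap was 2.16-fold meristem for pp_235113 and 2.25-fold for pp_235116, which had 3.74 and 2.61 CPM in vascular tissue. For pp_235112, pp_235114 and pp_235115 cap was 9.62-fold, 13.4-fold and 12.8-fold meristem, with 0.0902, 0.0856 and 0.148 CPM in vascular tissue. In contrast, the 5 members pp_143801 to pp_143805 were alike, with meristem 2.09-fold to 2.26-fold above cap and means of at most 0.0126 CPM in cortex and 0.0393 CPM in vascular tissue. Both runs were singled out after their values were seen.

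The members varied between libraries of 1 group more than most transcripts did. Their median SD on the log2(CPM + 0.5) scale within groups was 0.85 in cap and 0.74 in meristem, against 0.37 and 0.27 over all transcripts. The highest of the 6 cap libraries was a median 4.75-fold above the lowest, with 0.5 CPM added to each, against 1.98-fold over all tested transcripts, and 26 members spread by at least 10-fold, against 3.46% of all. In meristem the median was 4.09-fold against 1.67-fold, and 17 members spread by at least 10-fold, against 2.11% of all. The same set was the highest in cap and in meristem for 38 members and the lowest in both for 35, each against 27% of all tested transcripts.

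A few members had most of their apical level in few libraries. Transcript pp_111379 had 61.6% of its summed apical level in 1 library, cap KCl 1, with 306 CPM, against a lowest cap library of 0.911 CPM and a median of 16.3 CPM. It was still apical in 6 of 6 sets. Transcript pp_189257 had 115 CPM in cap nitrate 3 and 56.9 CPM in cap nitrate 1, and 26.5 CPM in cap KCl 1. Its other 3 cap libraries were at or below 0.329 CPM. In meristem, the lower of its apical areas, it had 31.9 CPM in nitrate 3 and at most 2.84 CPM in the other libraries. It was apical in 4 of 6 sets. Transcript pp_90492, named after its values were seen, was high in the sets numbered 2 of both solutions alone: it had 3.33 CPM in cap nitrate 2 and 10.3 CPM in cap KCl 2, with 2.94 and 9.04 CPM in the matching meristem libraries. In the other 8 apical libraries it had at most 0.123 CPM, which came from 5 reads, and it was apical in 3 of 6 sets.

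Some libraries stood apart for the list as a whole. Meristem nitrate 2 was the lowest of the 6 meristem libraries for 72 members, against 22.6% of all tested transcripts, and the members were a median 0.85 below their area mean there on the log2 scale. Meristem KCl 1 was the highest for 51 members, against 24.7%, at a median 0.71 above the mean. Cortex KCl 1 was the highest cortex library for 56 members, against 21.6%, at a median 0.58 above the mean. Over all tested transcripts the same medians were −0.03, 0.01 and 0.00, but scaling by library keeps such medians near 0, so they do not show whether other transcripts shifted as well.

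**Figure D4:**
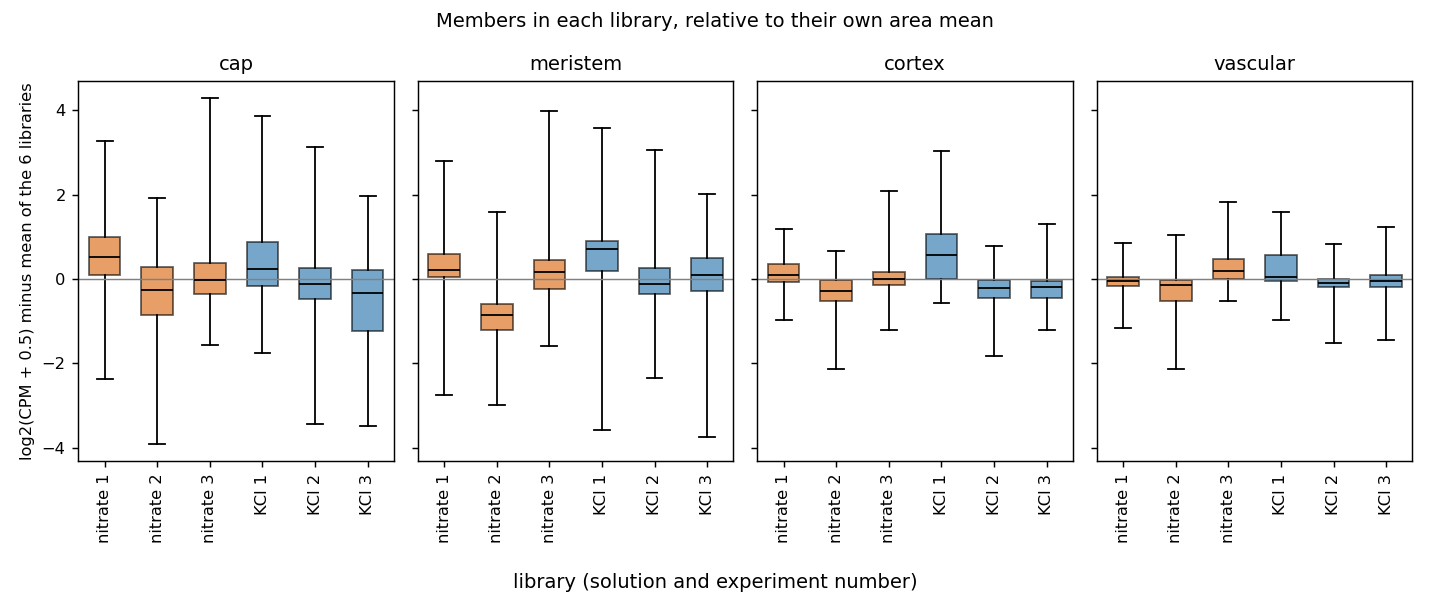
Members in each library relative to the mean of the 6 libraries of their area, as log2(CPM + 0.5) minus that mean, with nitrate libraries left of KCl libraries in each panel. Boxes show the median and quartiles of the 100 members: meristem nitrate 2 lies at −0.85 and meristem KCl 1 at 0.71.

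To test the pattern in libraries that did not choose it, the rule was applied to the libraries of 1 solution and the areas were compared in those of the other. The list chosen from KCl libraries shared 81 members with the 100, the list from nitrate libraries 85, and both lists shared 68. A transcript was called apical when limma gave all 4 differences, of cap and of meristem over cortex and over vascular tissue, above 0 with an adjusted p below 0.05. In nitrate libraries 80 of the 99 tested transcripts of the KCl list were called, against 1.1% of all tested, with 79 called by edgeR, against 1.16%. In KCl libraries 80 of the 99 tested of the nitrate list were called, against 0.874% of all tested, with 65 called by edgeR, against 0.67%. The apical difference was thus larger than the spread between libraries for most of each list. These calls are of the 2 lists, not of the 100 members as chosen. The minimum level for testing was taken over all 24 libraries, so the split was not complete. Libraries of the 2 solutions are separate samples here, though some of the same number deviated together, and areas of 1 set are not independent. With the set as a block 85 and 93 were called. The share over all tested transcripts is not given for that block, so the rise is not read as stronger support.

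The difference between cap and meristem was tested in the same way. In nitrate libraries 53 of the 99 from the KCl list differed by limma, 41 higher in cap and 12 lower, against 68.4% of all tested transcripts that differed, 34.4% higher and 34.1% lower. With edgeR the counts were 31 higher and 3 lower, against 33.6% and 34.2% of all. In KCl libraries 37 of the 99 from the nitrate list differed, 21 higher in cap and 16 lower, against 63.7% of all, 30.3% higher and 33.3% lower, and edgeR gave 19 higher and 6 lower, against 31.3% and 30.8%. The share that differed in either direction was below the share over all transcripts in both, while the rule itself favours transcripts that are present in both areas. By limma in nitrate libraries the 41 higher in cap were above the 34.4% of all, while the cap-higher counts by edgeR and in KCl libraries were below theirs. With the set as a block 65 and 46 of the 99 differed in nitrate and KCl libraries, against 37316 and 35920 of 51044 tested transcripts. A transcript that was not called is not shown to be equal in both areas, since members varied more within groups than most transcripts. The cause of the lower share was not tested.

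Few members were called for a nitrate change after 2 h. A member that was not called is not shown to be unchanged, since members varied more within groups than most transcripts. In cap 1 of the 100 was called by limma (Benjamini-Hochberg adjusted p below 0.05 over 51044 tested transcripts), and it was lower with nitrate, against 0.907% of all tested transcripts called in either direction and 0.214% lower. In meristem 1 was called, lower, against 0.0784% in either direction and 0.0411% lower, and in cortex 1, lower, against 0.208% and 0.047%. None was called in vascular tissue, against 0.415%. At an unadjusted p below 0.05 there were 5 members in cap, 10 in meristem, 4 in cortex and 0 in vascular tissue, out of 100, against 10.04%, 4.45%, 5.002% and 10.6% of all tested transcripts. The members' count was thus below the share over all transcripts in cap and vascular tissue, near it in cortex and above it in meristem. The rule keeps members low in cortex and vascular tissue, so a decrease there can hardly show. In meristem, nitrate 2 stood apart for the list, and members of 1 run may share reads. The 10 members there are thus not independent counts. With edgeR 1 was called in cap, 0 in meristem, 1 in cortex and 0 in vascular tissue, against 0.231%, 0.0333%, 0.0999% and 0.153% of all tested. With DESeq2 1 was called in cap, 1 in meristem, 2 in cortex and 0 in vascular tissue, against 2.22%, 0.305%, 0.491% and 0.67%. The count in cap is near the share over all transcripts, and the limma calls of the 3 areas are of the same member.

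That member was pp_241879, at rank 75. In cap it had 2.26, 1.18 and 2.73 CPM in nitrate libraries 1 to 3, against 46.2, 26.8 and 22.2 CPM in KCl libraries 1 to 3. In meristem it had 7.35, 6.89 and 8.55 CPM in nitrate libraries, against 62.9, 37.5 and 57.6 CPM in KCl libraries. In cortex it had 0.748, 0.282 and 0.574 CPM in nitrate libraries, against 8.42, 3.75 and 5.10 CPM in KCl libraries. Every nitrate library was below every KCl library in these 3 areas, and the meristem library was above the cap library in each of the 6 sets.

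The log2(CPM + 0.5) change of pp_241879 was −3.64 in cap, −2.69 in meristem and −2.55 in cortex, each with a SE of 0.334, and the limma adjusted p was 7.72e-06, 0.000767 and 0.000431. It was lower in 3 of 3 nitrate libraries in each. The edgeR adjusted p was 0.00497 in cap, 0.126 in meristem and 0.0208 in cortex, so the meristem call was not made by that test. It was also not called in any of these areas by a fit to the 6 libraries of the area alone, with an adjusted p of 0.408 in cap, 0.203 in meristem and 0.187 in cortex.

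In vascular tissue pp_241879 had 0.241, 0.0938 and 0.305 CPM in nitrate libraries, against 0.633, 0.130 and 0.0543 CPM in KCl libraries, and the groups overlapped, with 3 to 30 reads in each library (log2 change −0.05, SE 0.334). Averaged over cap and meristem within each set, the change was −3.16 (SE 0.252, n = 3 sets each) with a limma adjusted p of 0.095. The change in cap minus that in meristem was −0.95 (SE 0.472), with an adjusted p of 1 by limma, so a different size in the 2 areas was not shown.

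The next identifier, pp_241880, lies outside the 100 and was looked up after pp_241879 was seen. It averaged 0.956 CPM in nitrate and 15.6 CPM in KCl cap libraries, 3.03 and 23.3 CPM in nitrate and KCl meristem libraries, and 0.217 and 2.94 CPM in nitrate and KCl cortex libraries. Both identifiers thus had lower means with nitrate in the same 3 areas. No test of pp_241880 is given, and whether the 2 share reads was not tested.

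**Figure D5:**
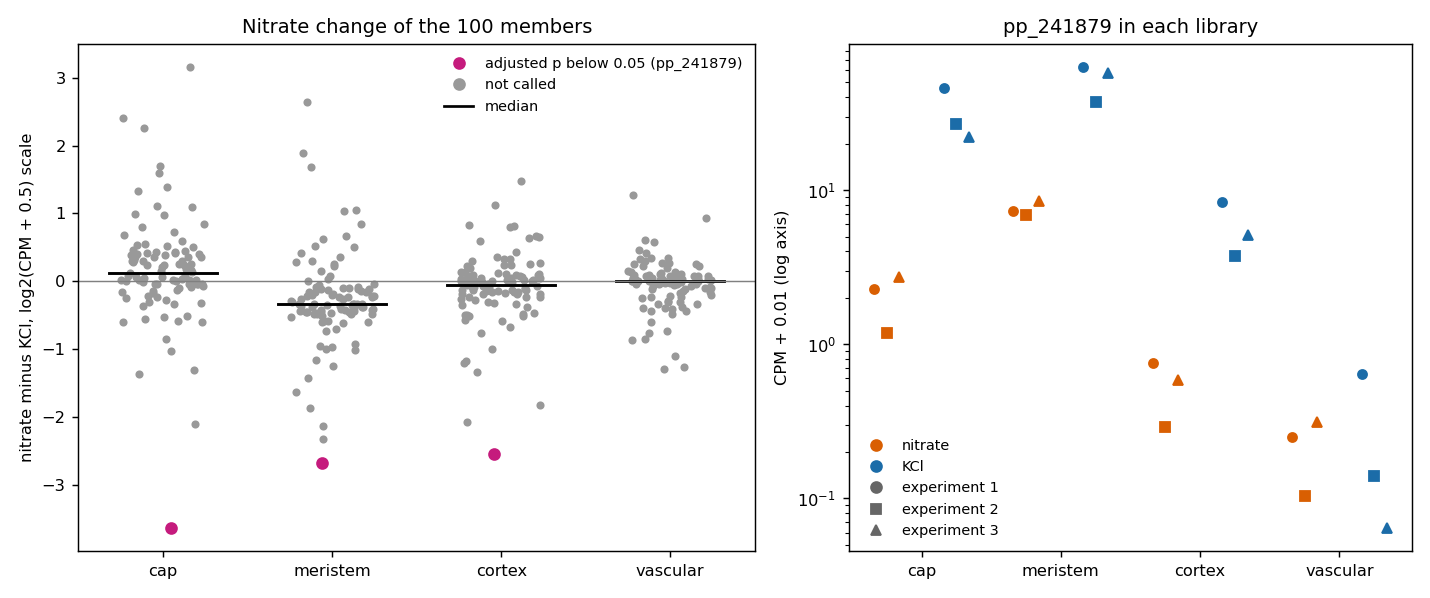
Left, nitrate minus KCl difference of each of the 100 members in each area (log2(CPM + 0.5) scale, points), with called members marked. Right, pp_241879 in each library (CPM + 0.01, log axis), nitrate left of KCl: every nitrate library lies below every KCl library in cap, meristem and cortex, and the groups overlap in vascular tissue.

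For the list as a whole, the median nitrate change was 0.12 in cap, −0.34 in meristem, −0.05 in cortex and 0.00 in vascular tissue, against −0.01, −0.01, 0.00 and 0.02 over all tested transcripts. In meristem 20 members had a change above 0 and 80 below. The libraries of the list that stand apart move with this value: without meristem nitrate 2 the median was 0.05, and without meristem KCl 1 it was −0.08. Nitrate libraries were all above KCl for 1 member in meristem and all below for 6, against 4.71% and 5.11% of all tested transcripts. In cap these counts were 4 and 1, against 4.7% and 3.62%. They were 4 and 2 in cortex, against 6.54% and 6.11%, and 4 and 4 in vascular tissue, against 11.8% and 7.75%.

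Summed over the members, the share of total CPM was 0.608% ± 0.116 in nitrate and 0.564% ± 0.075 in KCl cap libraries (SD, n = 3 each). It was 0.296% ± 0.108 in nitrate and 0.381% ± 0.094 in KCl meristem libraries (SD, n = 3 each). It was 0.0209% ± 0.0059 in nitrate and 0.0337% ± 0.0241 in KCl cortex libraries, and 0.0145% ± 0.0078 in nitrate and 0.0165% ± 0.0040 in KCl vascular libraries (SD, n = 3 each). The means differed by less than the larger SD in all 4 areas, and the SD of cortex KCl rests on its library 1.

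The nitrate effect in cap and that in meristem were compared by their difference. No member was called by limma, against 0.0372% of all tested transcripts, with a smallest adjusted p of 0.573 and 5 members at an unadjusted p below 0.05, against 4.86% of all tested. With edgeR and DESeq2 0 members were called, against 0.0098% and 0.197%. The median difference of cap minus meristem was 0.49, against 0.01 over all tested transcripts, above 0 for 86 members, and it was −0.01 without meristem nitrate 2. On set means over cap and meristem, 0 members were called by limma, against 0.00588% of all tested transcripts, with 3 at an unadjusted p below 0.05, against 4.44%. There edgeR called 0, against 0% of all, and DESeq2 called 2, against 1.01%.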

How the data were processed

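RNA was measured in 24 libraries of microdissected root-tip areas. The deposited values, named CPM by the authors, are a signal made from scaled read counts. The submitters' processing notes name bcl2fastq and BWA. For the counter, the reference and the scaling, the method is not given in the sources used here. Column totals differ, so a factor beyond the library total was applied. All values (100%) were whole multiples of 1 read within 0.02 reads, which gave the recovered reads.

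Members and lists were chosen with earlier results of these data known. Tests planned for plain CPM were kept: limma 3.58.1 in R 4.3.3 on log2(CPM + 0.5), with a mean-variance trend, over 8 group means of 24 libraries. A minimum of 1 CPM in 3 or more libraries left 51044 transcripts to test, removed 167 and kept all 100 members. Folds on this scale understate changes of low transcripts. Alternatives were edgeR 4.0.16 and DESeq2 1.42.0 on recovered reads, other pseudocounts, scalings and filters, and leaving out each library. The limma nitrate tests were tried on simulated counts. These were drawn as independent libraries with 1 fixed spread for all transcripts, without the joint deviation of sets. That trial therefore does not cover the members, which vary more.

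Same-numbered libraries of 1 solution deviated together across areas in 36 of 36 pairs, and 24 of 24 libraries matched their own number best, so sets pair areas. This comes from the data, not from the labels. Named members were the 2 highest ranks, the 2 with the highest lower apical mean, the 2 at each end of the cap to meristem ratio, ranks 99 to 102, members called with nitrate, the 2 with the largest share of their apical level in 1 library, and the longest run of identifiers. Others are said to be chosen after their values were seen. Planned marker lists were not tested, since 0 identifiers have a name. No column was left unmapped. Read counts limit precision through counting error only.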

Additional observations from a re-analysis of the deposited data

How the results depend on the processing

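The list kept 72 to 95 of its 100 members under other pseudocounts, scalings, averages or libraries of 1 solution, and 87 to 95 when 1 set was left out. Of 188 alternative counts, 172 lay within 1.5 times the reported one. They include the overlaps of the list above, calls of the lists chosen from 1 solution, and contrasts with 0 calls in both fits. The 172 is therefore no measure of how stable the nitrate calls of members are. The 16 others follow, and their cause was not tested. Apart from edgeR and DESeq2, the matching counts over all tested transcripts are not given for these fits, so no rise is read as a result. For nitrate in cap the count of 1 was 2 with a pseudocount of 1 or median-of-ratios scaling, 3 with the experiment number as a replicate block, 0 with the 6 libraries of the area alone and 1 to 3 with a library left out (3 without nitrate 2 or without KCl 1). The added members were pp_154732 (log2 change 1.70, limma adjusted p 0.0506 in the reported fit), pp_235116 and pp_201313. In meristem the count was 0 with the area alone and 0 with edgeR. In cortex it was 2 with the block, 0 with the area alone and 2 with DESeq2. Over cap and meristem it was 1 with quantile normalization, 1 with 12 separate libraries, 2 with DESeq2 and 0 to 2 with a library pair left out (2 without KCl 1). For cap over meristem in nitrate libraries 34 were called by edgeR, against 53. The vascular change of pp_241879 was 0.014 with a pseudocount of 0.1 and −0.26 to 0.26 with a library left out, with no call in any of these fits, and it was above 0 without vascular nitrate 2 (0.074) or vascular KCl 1 (0.26).

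Over all tested transcripts the nitrate calls numbered 463 by limma, 118 by edgeR and 1126 by DESeq2 in cap, 40, 17 and 155 in meristem, 106, 51 and 249 in cortex, 212, 78 and 340 in vascular tissue, 19, 5 and 100 for cap minus meristem and 3, 0 and 510 over cap and meristem. Median-of-ratios scaling moved the median cap minus meristem difference of all transcripts in KCl libraries to 0.04, against −0.07 in the reported fit. The replicate block by set changed none of the counts it was applied to by more than 1.5 times. Experiment numbers paired the solutions only in part: 6 of 12 pairs had a correlation above 0.1, and 13 of 24 libraries matched their own number best. Correlations within an area ran from 0.103 to 0.298 for number 1, from −0.0153 to 0.205 for number 2 and from −0.0429 to 0.00588 for number 3. Whether solutions of 1 number share a batch was not tested. Members near 0 in cortex and vascular tissue leave little room for a decrease to show.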
